A study of Homo sapiens with 9 samples.

Results

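The mitochondrial ribosomal proteins were described here in C28/I2 cells, a human chondrocyte line that has been immortalised. Members were the protein-coding genes whose symbol is MRPL or MRPS followed by digits, with an optional final A, B or C. The rule took 78 of the 60671 genes in the count tables, 49 with MRPL names and 29 with MRPS names, and used no measured value. RNA was sequenced from 9 libraries, 3 in each of 3 groups. The CA2 shRNA group was transduced with a short hairpin RNA against carbonic anhydrase 2 (CA2), the cytosolic enzyme that hydrates carbon dioxide. Its references were the Scrambled group, whose construct the labels do not describe, and the Control group, for which the labels do not say whether cells were transduced. All 9 libraries come from the same cell line, and the title of the series places the question in the metabolic homeostasis of articular chondrocytes. The labels do not say whether replicates came from separate cultures, and the spread behind the p-values may therefore be technical.

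The mitochondrial ribosome translates the few messenger RNAs that mitochondrial DNA encodes, all of which specify subunits of the oxidative phosphorylation complexes. Its ribosomal RNAs are transcribed inside the organelle, while all of its proteins are encoded in the nucleus, made in the cytosol and imported. Some of these proteins descend from those of the bacterial ribosome, and others were added during the evolution of mitochondria. Articular chondrocytes rely largely on glycolysis, and oxidative phosphorylation contributes less of their ATP than in most tissues. By their position in the known structure, 51 members belong to the large subunit and 26 to the small one. MRPS30 and MRPS18A carry small-subunit names but sit in the large subunit. MRPS36 is counted here by its name but is a component of the 2-oxoglutarate dehydrogenase complex. Homologues of bacterial proteins made up 48 members, and 29 were specific to mitochondria.

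Library totals ranged from 16994368 to 34261244 counts. CA2 itself was lower in CA2 shRNA libraries, with a log2 fold change of -0.77 (SE 0.231, adjusted p = 0.0276) against Scrambled and -0.86 (SE 0.23, adjusted p = 0.0159) against Control. That call was lost against Scrambled without shRNA 2 (0.1), shRNA 3 (0.109), Scrambled 2 (0.0533) or Scrambled 3 (0.103) and with no filter (0.0544), and against Control without shRNA 2 (0.0665), shRNA 3 (0.0759) or Control 1 (0.0531). Of 13 chondrocyte markers, 5 averaged at least 1 CPM (SOX9, MATN3, COL11A2, COMP and COL2A1), ACAN averaged 0.868 CPM and COL9A1 had no count. The summed level of the 13 lay between 106.3 and 127.8 CPM per library. Summed markers of immune (5 genes), endothelial (3), epithelial (3), adipocyte or muscle (4) and neural cells (3) lay between 0.649 and 5.95 CPM per list and library. Of these genes, CD14, VWF, GFAP and RBFOX3 averaged at least 1 CPM. The lists differ in length, so their sums are not on 1 scale. Mitochondrial genes took 5.55% to 6.62% of counts in the CA2 shRNA libraries and 5.85% to 6.86% in 4 of the control libraries. Scrambled 2 and Control 3 stood apart from those, with 4.08% and 4.06%. Over the genes tested, these 2 libraries of different groups were also the most alike of all pairs, with a chi-square per gene of 3.76. Within its own group Scrambled 2 had values of 19.9 (with Scrambled 1) and 18.2 (with Scrambled 3). Control 3 had 14.7 with Control 1 and 8.31 with Control 2. The cause of this likeness across groups was not tested. The total counts of members that rose and fell are given below with and without those 2 libraries, and the other counts with all 9.

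The members together took 0.3225%, 0.3377% and 0.3307% of the counts in the CA2 shRNA libraries, 0.3179%, 0.3352% and 0.3093% in the Scrambled libraries and 0.3159%, 0.319% and 0.327% in the Control libraries. The mean share was 0.33% ± 0.00761 in CA2 shRNA, 0.321% ± 0.0132 in Scrambled and 0.321% ± 0.00573 in Control (SD, n = 3 each). The highest Scrambled and Control shares lay within the range of the CA2 shRNA libraries, so the groups overlapped.

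Levels between genes are compared as reads per kilobase of exon scaled to library size (RPKM), averaged over the 9 libraries. The median member stood at 14.5 RPKM, near the 11.1 RPKM of the median nuclear-encoded subunit of respiratory complex I (38 genes) and below the 101.6 RPKM of the median cytosolic ribosomal protein (77 genes). Large-subunit members had a median of 16.5 RPKM and small-subunit members one of 9.11 RPKM. The highest level was that of MRPL41, a mitochondria-specific protein of the large subunit, at 118.7 RPKM. MRPS26, a mitochondria-specific protein of the small subunit, followed at 83.9 RPKM. MRPL51 stood at 68.3 RPKM, MRPL37 at 64.5 RPKM and MRPS34 at 40.8 RPKM. Levels spanned 211.2-fold between MRPL41 and the lowest member with counts, MRPS24 at 0.562 RPKM. MRPS18C stood at 0.644 RPKM, MRPL46 at 0.867 RPKM and MRPL38 at 0.988 RPKM.

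The lowest levels lay largely in genes whose exons overlap other genes in the tables. Of the 6 lowest members, 5 shared at least 20% of their exon bases with another listed gene, against 18 of all 78. Overlap was not limited to low levels: MRPL51 and MRPS34, among the 5 highest members, shared 27.6% and 31.2%. Members that shared at least 20% had a median of 9.34 RPKM, and the 36 members that shared no base had one of 17.7 RPKM. MRPL53, a mitochondria-specific protein of the large subunit, had 0 counts in all 9 libraries. Only 4 of its 685 exon bases were free of other genes: CCDC142 on the same strand covered 72.8% of them and ENSG00000286883 on the opposite strand 79.4%. A count of 0 allows MRPL53 a level of up to 0.0876 to 0.177 CPM per library (3 counts, counting error only), and only for reads that the authors' counting could assign to it. How reads shared by several genes were treated is not given in the sources used here, so the RPKM of overlapped members is uncertain. Exon length also moved with RPKM, with a Spearman correlation of -0.547 across the 77 members with counts, which share the same libraries and whose RPKM is itself divided by that length.

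**Figure D1:**
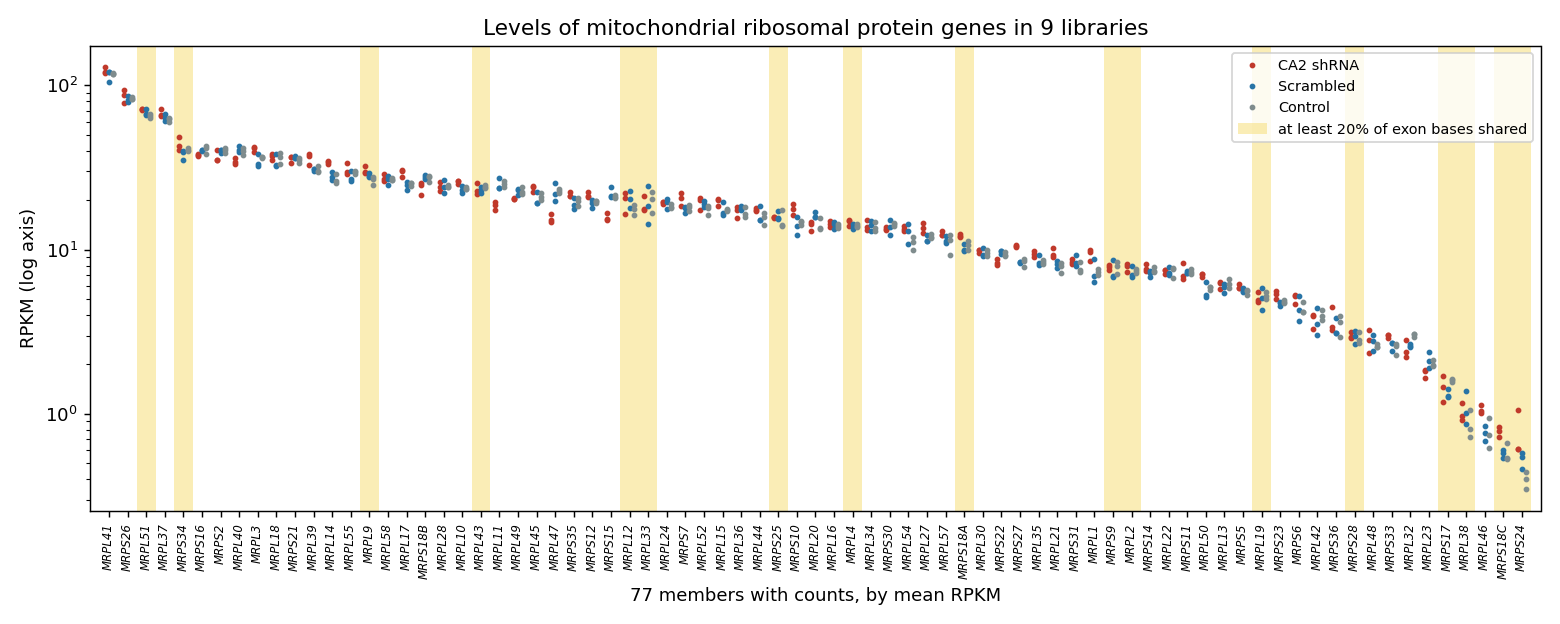
RPKM of the 77 members with counts, on a log axis, ordered by mean RPKM. Each point is 1 library, coloured by group (CA2 shRNA left, then Scrambled and Control), and yellow bands mark members with at least 20% of exon bases shared with another gene. MRPL41 stands highest at a mean of 118.7 RPKM and MRPS24 lowest at 0.562 RPKM, and 4 of the 5 members at the right end carry a band. MRPL51 and MRPS34, towards the left end, carry one too.

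Against Scrambled, 11 of the 77 members that passed the filter on low counts rose in CA2 shRNA libraries and 5 fell (edgeR quasi-likelihood test, Benjamini-Hochberg adjusted p under 0.05 over 19812 genes). Those are 14.3% and 6.49% of the members, against 8.02% and 8.88% of all genes tested and 11.2% and 10.7% of the protein-coding genes tested. The 5 falls were MRPL47, MRPS15, MRPL11, MRPL40 and MRPS22. The 11 rises were MRPL46, MRPL1, MRPS10, MRPS27, MRPL50, MRPL14, MRPL17, MRPL3, MRPL39, MRPL45 and MRPL27. Changes were small: log2 fold changes of the members lay between -0.53 and 0.51, and 57 of 77 were above 0. The median member changed by 0.085 on the log2 scale, the median of all genes tested by -0.025 and the median protein-coding gene by 0.013. In 24 members (31.2%, against 15.2% of all genes and 20% of protein-coding genes) every CA2 shRNA library lay above every Scrambled library, and in 9 (11.7%, against 17.2% and 17.9%) every one lay below.

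Against Control, 8 members rose and 4 fell, which is 10.4% and 5.19% of the members against 6.41% and 8.26% of all genes and 8.88% and 10.4% of protein-coding genes. The falls were MRPL47, MRPL11, MRPS15 and MRPL40. The rises were MRPS24, MRPL1, MRPL14, MRPS27, MRPS10, MRPL21, MRPL39 and MRPL17. The median member changed by 0.071 on the log2 scale and the median gene by -0.005. Every CA2 shRNA library lay above every Control library in 28 members (36.4%, against 15.8% of all genes and 20.7% of protein-coding genes) and below in 10 (13%, against 17.2% and 19.6%). Both comparisons use the same CA2 shRNA libraries and so are not independent of each other.

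The number of rises rested on single libraries. Against Scrambled the 11 rises became 3 without shRNA 2, 6 without Scrambled 1, 19 without Scrambled 2, 2 without Scrambled 3 and 7 without Control 2. The 5 falls became 3 without shRNA 1, without shRNA 3 or without Scrambled 2. Those 3 are 3.9% of the members, against falls in 5.44%, 5.72% and 8.16% of all genes in these fits. Against Control the 8 rises became 4 without shRNA 1, 3 without shRNA 2, 15 without Scrambled 2, 4 without Scrambled 3, 4 without Control 1, 2 without Control 2 and 2 without Control 3. With both Scrambled 2 and Control 3 left out, 18 members rose and 3 fell against Scrambled, and 13 rose and 3 fell against Control. The falls are 3.9% of the members in each comparison, against 9.43% and 7.32% of all genes. Calls over all genes moved as well. Against Scrambled, the share of members that rose was 3.9% without shRNA 2 (all genes 4.35%), 7.79% without Scrambled 1 (6.41%), 24.7% without Scrambled 2 (11.6%), 2.6% without Scrambled 3 (4.27%), 9.09% without Control 2 (5.7%) and 23.4% without Scrambled 2 and Control 3 (12.1%). Against Control it was 5.19% without shRNA 1 (all genes 6.09%), 3.9% without shRNA 2 (3.19%), 19.5% without Scrambled 2 (10%), 5.19% without Scrambled 3 (5.29%), 5.19% without Control 1 (4.36%), 2.6% without Control 2 (3.29%), 2.6% without Control 3 (4.59%) and 16.9% without Scrambled 2 and Control 3 (8.77%). These are the fits in which the number of rises moved most. In them the members' share of rises lay below that of all genes in 6 and above it in 8. It lay above that of all genes in every other fit with 1 library left out. Against Scrambled these shares were 14.3% without shRNA 1 (all genes 7.4%), 11.7% without shRNA 3 (7.6%), 14.3% without Control 1 (7.84%) and 11.7% without Control 3 (7.24%). Against Control they were 9.09% without shRNA 3 (6.25%) and 11.7% without Scrambled 1 (6.59%). All members are protein-coding, and shares of protein-coding genes were not taken for these fits. In the fit of all 9 libraries more protein-coding genes than all genes rose (11.2% and 8.02% against Scrambled, 8.88% and 6.41% against Control). The shares of all genes are therefore a low reference for the members. Scrambled 2 was the Scrambled library nearest to the CA2 shRNA libraries in 9 of the 11 members that rose against Scrambled and in 0 of the 5 that fell. Control 3 was the nearest Control library in 5 of those 11 and in 0 of those 5. The same was not counted over all genes. The part of the lower mitochondrial share of Scrambled 2 and Control 3 in these counts was not tested.

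The median change also moved with single libraries while staying above 0. Against Scrambled it was 0.153 without shRNA 1, 0.035 without shRNA 2 and 0.145 without Scrambled 2, and against Control it was 0.149 without shRNA 1, 0.029 without shRNA 2 and 0.117 without shRNA 3. A change of this size is close to the spread between libraries: each library's median member, relative to its mean over all 9, stood at 0.009, 0.124 and 0.053 on the log2 scale in CA2 shRNA, at -0.02, 0.043 and -0.09 in Scrambled and at -0.052, -0.014 and -0.001 in Control.

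**Figure D2:**
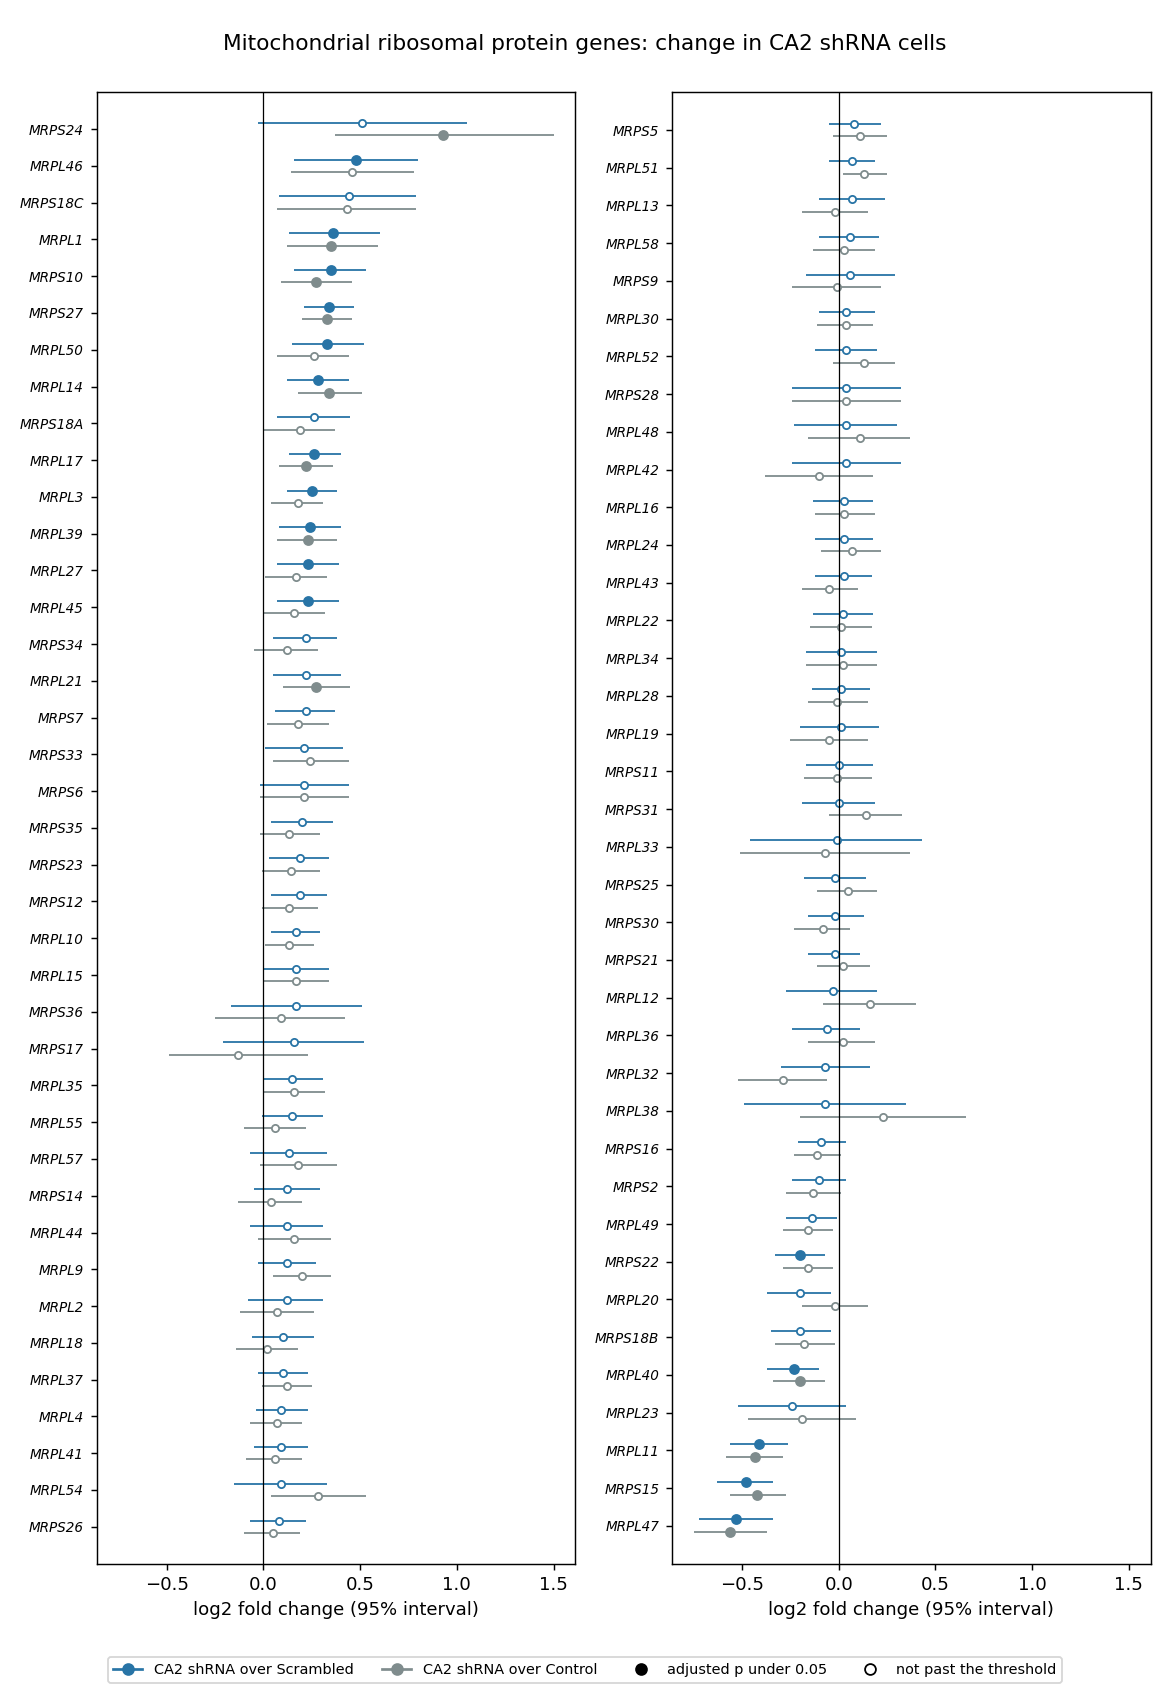
Log2 fold change of the 77 tested members in CA2 shRNA over Scrambled (blue) and over Control (grey), with 95% intervals, ordered by the change over Scrambled from the top left to the bottom right. Filled points have an adjusted p under 0.05. MRPL47, MRPS15 and MRPL11 stand at the lower end in both, at -0.53, -0.48 and -0.41 over Scrambled.

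MRPL47, MRPS15, MRPL11 and MRPS27 passed the threshold in both CA2 shRNA comparisons under all 21 alternative settings tried, which include leaving out each of the 9 libraries. MRPS10 did so against Scrambled and MRPL14 against Control.

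MRPL47 (ENSG00000136522), a large-subunit homologue of a bacterial protein beside the tunnel through which the new protein leaves, had the largest fall among the members in both comparisons. Its level was 22.5, 20.7 and 20.4 CPM in CA2 shRNA libraries, against 26.9, 34.8 and 29.9 CPM in Scrambled libraries and 30.8, 30.4 and 32.3 CPM in Control. Every CA2 shRNA library lay below every control library. The fold change was -0.53 (SE 0.0901, adjusted p = 0.000437) against Scrambled and -0.56 (SE 0.0902, adjusted p = 0.000273) against Control, on the log2 scale. The gene lies on the minus strand of chromosome 3 at chr3:179588285-179604649 (GRCh38).

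MRPS15, the small-subunit homologue of the bacterial protein of that number, stood at 43.7, 44.6 and 47.2 CPM in CA2 shRNA libraries, against 60.5, 68.9 and 60.2 CPM in Scrambled libraries and 59.0, 60.4 and 61.6 CPM in Control. The groups did not overlap. The log2 fold change over Scrambled was -0.48 (SE 0.0681, adjusted p = 6.97e-05), and over Control it was -0.42 (SE 0.0683, adjusted p = 0.000314). None of its exon bases was shared with another gene.

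MRPL11, whose bacterial homologue forms the base of the stalk that receives translation factors, had 47.3, 45.6 and 49.3 CPM in CA2 shRNA libraries. It had 59.5, 68.9 and 60.5 CPM in Scrambled libraries and 61.1, 64.7 and 66.4 CPM in Control. Its 3 CA2 shRNA values were again below all 6 control values. Relative to Scrambled its log2 fold change was -0.41 (SE 0.0698, adjusted p = 0.000466), and relative to Control -0.43 (SE 0.0699, adjusted p = 0.00027).

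MRPL40 and MRPS22 fell by less. MRPL40, a mitochondria-specific large-subunit protein, had 65.2, 72.5 and 66.9 CPM in CA2 shRNA, 79.2, 84.0 and 77.3 CPM in Scrambled libraries and 74.1, 79.3 and 81.6 CPM in Control. Its CA2 shRNA libraries were below all control libraries, with a log2 fold change of -0.23 (SE 0.064, adjusted p = 0.0166) against Scrambled and -0.2 (SE 0.0641, adjusted p = 0.0421) against Control. The call against Scrambled was lost without shRNA 1 (0.148), shRNA 3 (0.111) or Scrambled 2 (0.081) and without Control 3 and Scrambled 2 together (0.0728). Against Control it was lost without shRNA 1 (0.281), shRNA 3 (0.214), Scrambled 2 (0.0585), Scrambled 3 (0.0611), Control 2 (0.103) or Control 3 (0.172), without Control 3 and Scrambled 2 together (0.197), with DESeq2's size factors (0.0709) or Wald test (0.0662) and after thinning to the smallest library (0.0594). MRPS22, a mitochondria-specific small-subunit protein, had 44.6, 44.6 and 46.4 CPM in CA2 shRNA, 50.5, 52.5 and 52.8 CPM in Scrambled libraries and 49.7, 49.7 and 52.4 CPM in Control. Its log2 fold change over Scrambled was -0.2 (SE 0.0617, adjusted p = 0.0328), and the groups did not overlap. Against Control its change of -0.16 did not pass (adjusted p = 0.0965). Its call against Scrambled was lost without shRNA 1 (0.183), shRNA 2 (0.0711), shRNA 3 (0.0998), Scrambled 2 (0.1) or Scrambled 3 (0.123) and without Control 3 and Scrambled 2 together (0.0998). It was also lost with DESeq2's size factors (0.0648) or Wald test (0.067), with no filter (0.0885) and with only the 2 groups fitted (0.0735).

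MRPS27, a small-subunit protein with pentatricopeptide repeats, a fold that binds RNA, rose in CA2 shRNA libraries. It had 67.6, 71.7 and 67.5 CPM there, against 54.2, 54.4 and 54.4 CPM in Scrambled libraries and 55.1, 51.9 and 57.4 CPM in Control. The lowest CA2 shRNA library stood above the highest control library. The log2 fold change was 0.34 (SE 0.0615, adjusted p = 0.000734) against Scrambled and 0.33 (SE 0.0615, adjusted p = 0.00108) against Control.

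MRPL14, a homologue of a bacterial protein at the face where the subunits meet, had 32.4, 32.8 and 32.6 CPM in CA2 shRNA, 26.4, 28.5 and 25.4 CPM in Scrambled libraries and 24.2, 27.8 and 25 CPM in Control. All CA2 shRNA libraries were above all control libraries. Its rise over Scrambled was 0.28 on the log2 scale (SE 0.0764, adjusted p = 0.0153), lost without shRNA 2 (0.0572) or Scrambled 3 (0.0926), and 0.34 against Control (SE 0.0767, adjusted p = 0.00451).

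MRPS10, a small-subunit homologue of a bacterial protein, had 37.3, 35.2 and 39.5 CPM in CA2 shRNA, 25.5, 33.2 and 29.4 CPM in Scrambled libraries and 29.6, 31.4 and 31.7 CPM in Control. The CA2 shRNA libraries were the 3 highest of the 9. The log2 fold change was 0.35 over Scrambled (SE 0.0876, adjusted p = 0.0107) and 0.27 over Control (SE 0.0876, adjusted p = 0.0424). The call against Control was lost without any 1 of the CA2 shRNA libraries (0.0596, 0.0698 and 0.108), without Scrambled 3 (0.0641) and without any 1 of the Control libraries (0.131, 0.126 and 0.0747), and with limma-voom (0.052), without robust estimation (0.0531) and after thinning (0.0663).

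MRPL17, a large-subunit homologue of a bacterial protein, had 78.0, 81.5 and 71.5 CPM in CA2 shRNA, 66.6, 64.9 and 60.8 CPM in Scrambled libraries and 63.6, 67.0 and 67.3 CPM in Control. Its log2 fold change was 0.26 over Scrambled (SE 0.0651, adjusted p = 0.00911) and 0.22 over Control (SE 0.0651, adjusted p = 0.0284), with no overlap of CA2 shRNA and control libraries. The first call was lost without shRNA 2 (0.0669) or Scrambled 3 (0.0708). The second was lost without shRNA 1 (0.0524), shRNA 2 (0.173), Control 1 (0.105), Control 2 (0.101) or Control 3 (0.0598).

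MRPL39, a mitochondria-specific large-subunit protein, had 39.0, 46.8 and 44.2 CPM in CA2 shRNA, 36.9, 37.1 and 36 CPM in Scrambled libraries and 35.9, 36 and 38.9 CPM in Control. The lowest CA2 shRNA library was just above the highest Control library. Its log2 fold changes were 0.24 against Scrambled (adjusted p = 0.033) and 0.23 against Control (adjusted p = 0.0479). Against Scrambled the call was lost without shRNA 2 (0.177), shRNA 3 (0.0698), Scrambled 1 (0.0504), Scrambled 3 (0.124) or Control 2 (0.0641), and against Control without shRNA 2 (0.254), shRNA 3 (0.0935), Scrambled 3 (0.0718), Control 1 (0.139), Control 2 (0.207) or Control 3 (0.0544). Thinning ended both calls (0.0573 against Scrambled and 0.0568 against Control), and limma-voom (0.0635), no filter (0.0612) and the fit without robust estimation (0.055) ended that against Control.

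MRPL1, whose bacterial homologue forms the stalk where spent transfer RNA leaves, had 16.1, 14.2 and 15.5 CPM in CA2 shRNA, 10.3, 14.2 and 11.2 CPM in Scrambled libraries and 12.4, 12 and 11.5 CPM in Control. Scrambled 2 reached the level of shRNA 2 to 3 digits. Its log2 fold changes were 0.36 against Scrambled (SE 0.113, adjusted p = 0.0336) and 0.35 against Control (SE 0.113, adjusted p = 0.0423). The first call was lost without shRNA 1 (0.0774), shRNA 2 (0.0583), shRNA 3 (0.0671), Scrambled 1 (0.126), Scrambled 3 (0.148) or Control 2 (0.0611). The second was lost without shRNA 1 (0.0948), shRNA 2 (0.0731), shRNA 3 (0.0824), Scrambled 3 (0.0585), Control 1 (0.0659), Control 2 (0.133) or Control 3 (0.136). Thinning ended both (0.0513 and 0.0922), as did fitting only the 2 groups against Scrambled (0.0558) and leaving out robust estimation against Control (0.0503).

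Of the other rises against Scrambled, MRPL3 was the most abundant, at 112.9, 109.1 and 113.4 CPM in CA2 shRNA and 87.7, 103.9 and 90.4 CPM in Scrambled. This large-subunit protein, whose bacterial homologue reaches towards the catalytic centre, had a log2 fold change of 0.25 (SE 0.0636, adjusted p = 0.0108), lost only without Scrambled 3 (0.0714) among the 21 alternatives. MRPL50, a mitochondria-specific protein, had 22.7, 24.2 and 23.4 CPM in CA2 shRNA and 17.1, 21.0 and 17.7 CPM in Scrambled, a log2 fold change of 0.33 (SE 0.0879, adjusted p = 0.0143). In both genes Scrambled 2 was the Scrambled library closest to the CA2 shRNA group. The MRPL50 call was lost without shRNA 2 (0.069), Scrambled 1 (0.053) or Scrambled 3 (0.0843).

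MRPL46, MRPL45 and MRPL27 passed against Scrambled by the narrowest margins. MRPL46, a mitochondria-specific protein at a low level, had 6.64, 7.48 and 6.43 CPM in CA2 shRNA and 4.89, 4.39 and 5.38 CPM in Scrambled, a log2 fold change of 0.48 (SE 0.153, adjusted p = 0.0389). Leaving out any 1 CA2 shRNA library (0.0588, 0.162 and 0.05) or any 1 Scrambled library (0.0684, 0.0696 and 0.0582) ended its call, as did leaving out Control 3 and Scrambled 2 together (0.0597), upper-quartile factors (0.0555) and thinning (0.0824). MRPL45, which in mammals ties the ribosome to the inner membrane, had 40.7, 39.3 and 40.9 CPM in CA2 shRNA and 32.3, 38.1 and 32.8 CPM in Scrambled, a log2 fold change of 0.23 (SE 0.0762, adjusted p = 0.0464). It passed in 8 of 21 alternatives: any 1 CA2 shRNA library (0.0687, 0.0946 and 0.0787), Scrambled 1 (0.145), Scrambled 3 (0.195), Control 2 (0.0887) or Control 3 (0.0554) left out ended the call, as did library totals (0.0565) or upper-quartile factors (0.0511) in place of TMM, limma-voom (0.05), no robust estimation (0.0527), only the 2 groups fitted (0.069) and thinning (0.0622). MRPL27, a homologue of a bacterial protein near the catalytic centre, had 38, 45.2 and 40.5 CPM in CA2 shRNA and 34.0, 37.0 and 34.3 CPM in Scrambled, a log2 fold change of 0.23 (SE 0.0746, adjusted p = 0.0422). Its call ended without shRNA 2 (0.224), shRNA 3 (0.0509), Scrambled 1 (0.102), Scrambled 3 (0.153), Control 2 (0.0794) or Control 3 (0.0548) and with upper-quartile factors (0.0564), limma-voom (0.0528) or only the 2 groups fitted (0.0648).

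MRPL46 and MRPS11 are the only pair of members whose start sites lie within 5000 bases of each other: they are transcribed away from each other from starts 63 bases apart on chromosome 15. MRPS11, a small-subunit homologue of a bacterial protein, had 37.4, 47.8 and 38.6 CPM in CA2 shRNA, 41.4, 40.7 and 40.8 CPM in Scrambled libraries and 42.6, 40.2 and 41.2 CPM in Control. Its log2 fold change against Scrambled was 0.0 (95% interval -0.17 to 0.18, adjusted p = 0.979), against 0.48 (0.16 to 0.8) for MRPL46; the difference between these genes was not tested.

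MRPS24 and MRPL21 passed only against Control. MRPS24, a small-subunit homologue of a bacterial protein, had 2.75, 1.63 and 1.57 CPM in CA2 shRNA, 1.2, 1.51 and 1.42 CPM in Scrambled libraries and 1.05, 1.17 and 0.909 CPM in Control. Its high value in shRNA 1 stood alone, and its log2 fold change of 0.93 (SE 0.269, adjusted p = 0.025) was 0.66 without that library, where the call was lost (0.151). It was also lost without Control 1 (0.052), Control 2 (0.0549) or Control 3 (0.0975), without Control 3 and Scrambled 2 together (0.0521) and after thinning (0.0949), and 23.2% of its exon bases are shared with the read-through gene URGCP-MRPS24. MRPL21, a large-subunit homologue of a bacterial protein, had 26.1, 29.5 and 25.1 CPM in CA2 shRNA, 24, 22.9 and 22 CPM in Scrambled libraries and 23.3, 20.6 and 22.6 CPM in Control. Its log2 fold change was 0.27 against Control (SE 0.0835, adjusted p = 0.0348) and 0.22 against Scrambled (SE 0.0832, adjusted p = 0.0755). The call against Control was lost without shRNA 2 (0.211), Scrambled 3 (0.0507), Control 2 (0.208) or Control 3 (0.0774) and with limma-voom (0.0504), and that against Scrambled was made without shRNA 3 (0.0457) and with a filter of 1 CPM in 3 libraries (0.0484).

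**Figure D3:**
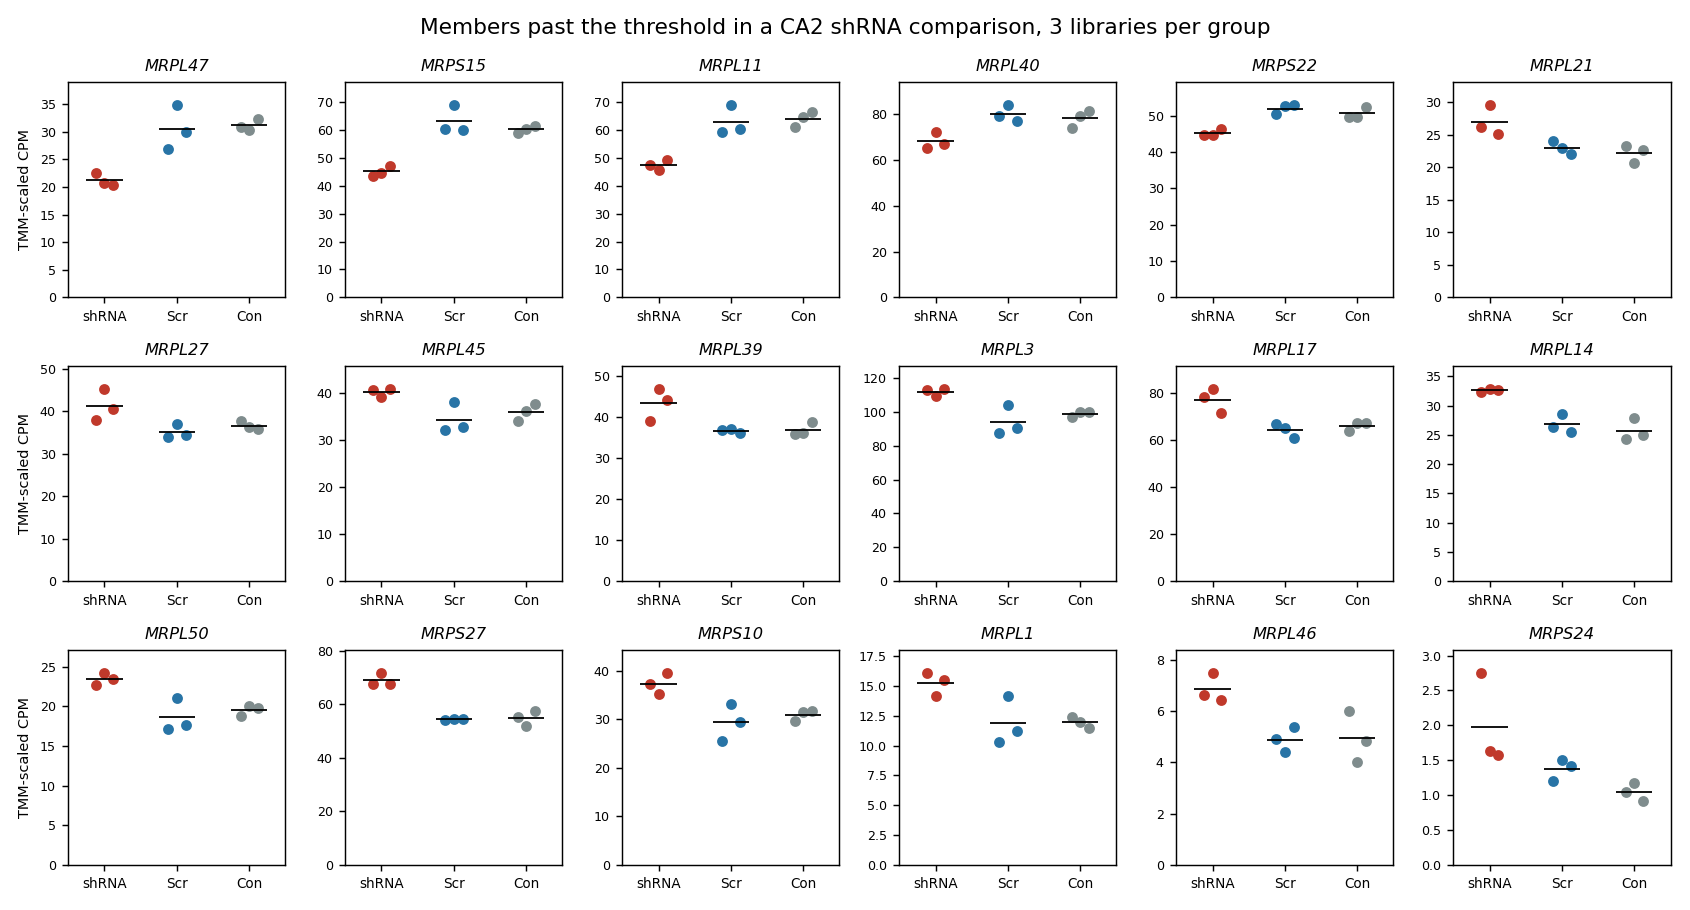
TMM-scaled CPM of the 18 members past the threshold in a CA2 shRNA comparison, with 1 panel a gene and an axis from 0. Points are libraries 1, 2 and 3 of CA2 shRNA, Scrambled (Scr) and Control (Con), and bars are group means. The first 5 panels hold the falls against Scrambled, with CA2 shRNA libraries below all controls, and Scrambled 2 is the high Scrambled point in MRPL1, MRPL3 and MRPL50.

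Rises and falls occurred in both subunits. Of 50 tested large-subunit members, 9 rose and 3 fell against Scrambled, with a median log2 change of 0.07. Of 26 small-subunit members, 2 rose and 2 fell, with a median of 0.104. These are 18% and 6% of the large-subunit and 7.69% and 7.69% of the small-subunit members, against 8.02% and 8.88% of all genes and 11.2% and 10.7% of protein-coding genes. Homologues of bacterial proteins (6 rises and 3 falls of 48, 12.5% and 6.25%, median 0.077) and mitochondria-specific members (5 rises and 2 falls of 28, 17.9% and 7.14%, median 0.084) had similar medians against Scrambled. Against Control, 10% of large-subunit members rose and 6% fell (median 0.069), and 11.5% of small-subunit members rose and 3.85% fell (median 0.079). There 12.5% of bacterial homologues rose and 6.25% fell (median 0.04), and 7.14% of mitochondria-specific members rose and 3.57% fell (median 0.133). Of all genes, 6.41% rose and 8.26% fell against Control, and of protein-coding genes 8.88% and 10.4%. No difference between these classes was tested.

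The members with roles of their own did not pass. MRPS18A, MRPS18B and MRPS18C are 3 homologues of the same bacterial protein, and a ribosome holds each at a different site. MRPS18A had 15.3, 15.9 and 15.8 CPM in CA2 shRNA, against 12.7, 13.8 and 12.6 CPM in Scrambled (log2 fold change 0.26, adjusted p = 0.0519). MRPS18B had 37.8, 44.8 and 44.5 CPM in CA2 shRNA, against 49.3, 48.7 and 47.7 CPM in Scrambled (-0.2, adjusted p = 0.0744). MRPS18C had 3.79, 4.16 and 3.47 CPM in CA2 shRNA, against 2.62, 2.81 and 2.94 CPM in Scrambled (0.44, adjusted p = 0.0895). In each of the 3 the CA2 shRNA and Scrambled libraries did not overlap, with MRPS18B lower and the others higher in CA2 shRNA. MRPS18A and MRPS18C share 47.0% and 40.2% of their exon bases with other genes, and MRPL12 shares 69.5%, so their levels are uncertain. MRPL12, which has also been reported to bind the mitochondrial RNA polymerase, changed by -0.03 (95% interval -0.27 to 0.2). MRPL58, which frees the new protein from stalled ribosomes, changed by 0.06 (-0.1 to 0.21), MRPS30 by -0.02 (-0.16 to 0.13) and MRPS36, the dehydrogenase component, by 0.17 (-0.17 to 0.51). The most abundant member, MRPL41, had 68.5, 77.2 and 69.2 CPM in CA2 shRNA, against 69.7, 70.5 and 61.5 CPM in Scrambled, a log2 fold change of 0.09 (-0.05 to 0.23).

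For most members that did not pass, the data bound the change. Of the 61 not past the threshold against Scrambled, 56 had a 95% interval within 0.5 of 0 on the log2 scale, as did 59 of the 65 against Control. Among the calls only MRPL47 (-0.53 against Scrambled and -0.56 against Control) and MRPS24 (0.93 against Control) lay beyond 0.5. These limits therefore do not exclude changes as large as the other calls.

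Few differences between Scrambled and Control libraries were found in these genes. No member passed the threshold (0 of 77 with edgeR, and 0 with DESeq2 or limma-voom), against 0.0% of all genes with edgeR. MRPL20, at 0.18 on the log2 scale (adjusted p = 1.0 with edgeR), was the 1 member of 77 with an unadjusted p under 0.05, against 550 of 19812 genes. Every Scrambled library lay above every Control library in 2 members (2.6%, against 3.66% of all genes) and below in 4 (5.19%, against 3.14%). The median member changed by -0.015. Each group held 1 of the 2 libraries that stood apart, Scrambled 2 and Control 3. Over all genes tested, their chi-square values within the group were larger than those of the other 2 libraries (5.97 in Scrambled and 4.8 in Control). In the members, the median SD as a share of the mean was 6.19% in Scrambled, 4.64% in Control and 5.82% in CA2 shRNA. The part of these 2 libraries in the absence of calls was not tested. With 3 libraries a group, that absence does not show that the groups are alike. With both Scrambled 2 and Control 3 left out, 0 of 77 members and 0 of 19968 genes passed, in groups of fewer libraries.

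Short sequences in the transcripts were set beside these changes. Earlier results on all genes of these libraries had singled out the heptamers ACACCAA and CACCAAA among transcripts that were lower in CA2 shRNA cells, so their occurrence in members is a description and no independent evidence. They were searched on the sense strand in the GENCODE 29 coding sequence and 3′ UTR of each gene (the transcript with the longest 3′ UTR), and they overlap each other in ACACCAAA. A match was found in 18 of the 77 tested members (23.4%, against 36.7% of 14031 genes searched). Of the 5 members that fell against Scrambled, 4 held a match, of the 11 that rose 1 did, and of the 61 others 13 did. Over all genes a match was held by 72.5% of those that fell, 19.4% of those that rose and 34.3% of the rest. The windows of those 4 falls and of the 1 rise are shown to place the match, in capitals, within the transcript (5′ to 3′, minus-strand genes in transcript direction).
MRPL47: gcctaagagtACACCAAAtgtgacatcc
MRPS15: aacctccgtaACACCAActatgatgtct
MRPL11: gaaggaggtcACACCAAtatgatgatgg
MRPS22: taaaattttgACACCAAtaattttcaag
MRPL14: actgaggtacACACCAAAtgccaattta
The match of MRPL47 lies in its coding sequence at chr3:179602752-179602779, that of MRPS15 in its coding sequence at chr1:36456291-36456318 and that of MRPS22 in its coding sequence at chr3:139350280-139350307 (GRCh38, windows as printed). The match of MRPL11 lies in the 3′ UTR at chr11:66435916-66435943. MRPL14, which rose, carries its match in the 3′ UTR at chr6:44113477-44113504, with the same 8 bases as MRPL47. MRPL40, which also fell, holds neither heptamer in the parts searched.

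Members with a match changed by a median of -0.07 on the log2 scale against Scrambled, and the 59 without one by 0.118. For all genes searched those medians were -0.086 with a match and 0.06 without one. In the class with a match in the coding sequence alone, 3 of 10 members fell and 0 rose (30% and 0%). Over all genes of that class 15.3% fell and 6.62% rose. With a match in the 3′ UTR 1 of 8 members fell and 1 rose (12.5% each), against 26.9% and 5.27% of all genes of that class. Against Control, 3 of the 4 falls and 1 of the 8 rises held a match (75% and 12.5%). Over all genes 75% of the falls and 20.5% of the rises against Control did.

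**Figure D4:**
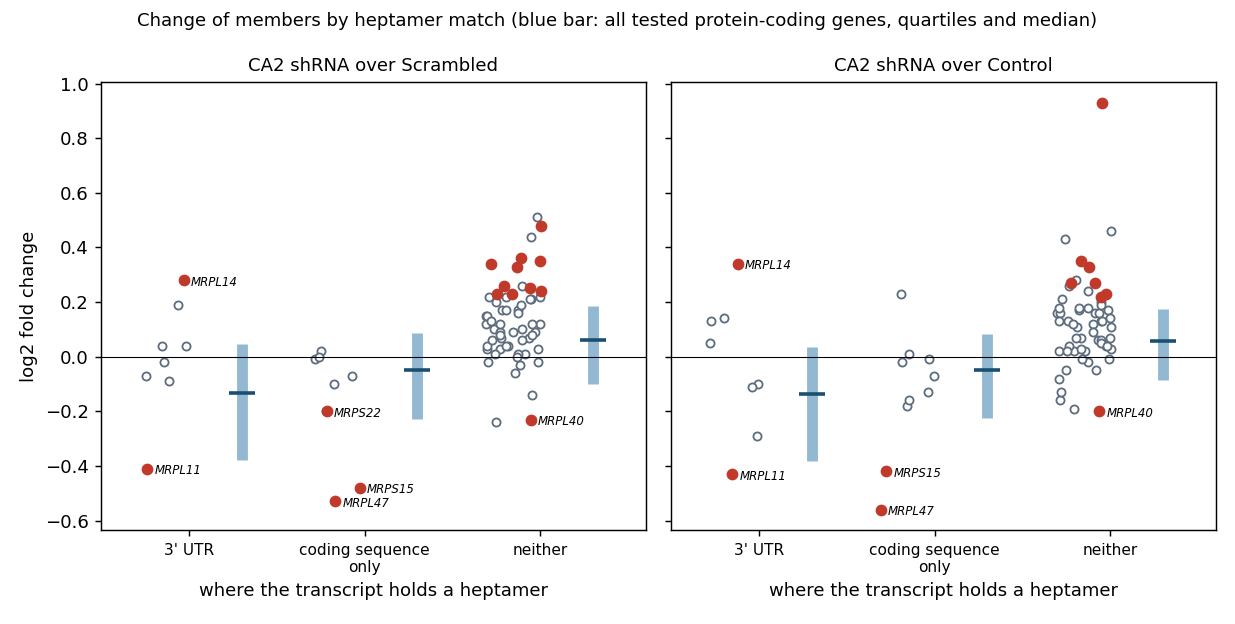
Log2 fold change of the 77 tested members in CA2 shRNA over Scrambled (left) and over Control (right), grouped by where the transcript holds ACACCAA or CACCAAA. Red points passed the threshold, and blue bars give the quartiles and median of all tested protein-coding genes of the class. MRPL47 and MRPS15 stand lowest in the class with a coding match over Scrambled, MRPL14 stands highest in the 3′ UTR class, and the 59 members in the last class have a median of 0.118 over Scrambled.

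Promoters of members carry recognition sequences of factors known for nuclear genes of mitochondria. RefSeq windows (GRCh38.p14) of 250 bases before to 50 after the start site were found for 69 of the 78 members and searched on both strands. The ETS-family sequence CCGGAAGT, which GABPA recognises, was in 15.9% of them (6.19% of 15843 protein-coding promoters), the NRF1 motif in 11.6% (8.58%), and the YY1 motif in 14.5% (1.37%); the letters of both stand in capitals in the windows below, and the fifth letter of the NRF1 motif may be any base. At least 1 of them was in 39.1% of member promoters and 14.9% of protein-coding promoters. These motifs do not overlap one another. A match is a description, not a binding site. A selection of windows from members that changed, up to 3 a motif, is shown with the match in capitals. MRPL14 and MRPL45 (NRF1), MRPL27 and MRPS22 (ETS) and MRPS24 (YY1) also passed in a CA2 shRNA comparison and hold a match that is not printed.
MRPS10: ggaccggcAAGATGGCGGCgcggacagc
MRPL46: gagaacgaAAGATGGCGGCgcccgtaag
MRPL50: tctcatcgAAGATGGCGGCgcgatctgt
MRPL47: ttgagacgCCGGAAGTgacgctatcgtt
MRPL3: aaaacgcaCCGGAAGTgggtccggcggc
MRPL17: gctctgatGCGCATGCGCaaacacgttc
The YY1 matches of MRPS10 (chr6:42217833-42217860), MRPL46 (chr15:88467361-88467388) and MRPL50 (chr9:101398576-101398603) begin 9, 8 and 23 bases after the start site. The ETS matches of MRPL47 (chr3:179604658-179604685) and MRPL3 (chr3:131502984-131503011) and the NRF1 match of MRPL17 (chr11:6683402-6683429) lie upstream of it. MRPL47 fell and MRPL3 rose with the same ETS sequence.

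Of the regulators themselves, YY1, a zinc finger factor, changed by -0.26 on the log2 scale over Scrambled (adjusted p = 0.00255) and by -0.31 over Control (adjusted p = 0.000672). HCFC1, a cofactor of several such factors, had a log2 fold change of -0.19 (adjusted p = 0.016) against Scrambled and of -0.26 (adjusted p = 0.00179) against Control. TFEB, a regulator of lysosomal and mitochondrial genes, rose by 0.69 (adjusted p = 0.000221) and 0.62 (adjusted p = 0.000577). GABPB2, a partner of GABPA, fell by 0.3 (adjusted p = 0.0163) and 0.34 (adjusted p = 0.00796). In all, 1 of 11 regulators rose and 3 fell against Scrambled, and 2 rose and 3 fell against Control, where PPARGC1B was the other rise. Those are 9.09% and 27.3% against Scrambled and 18.2% and 27.3% against Control, of a short list. Of all genes 8.02% rose and 8.88% fell against Scrambled, and 6.41% and 8.26% against Control. For protein-coding genes these shares were 11.2% and 10.7%, and 8.88% and 10.4%. NRF1 changed by -0.11 (adjusted p = 0.457) and GABPA by 0.05 (adjusted p = 0.836) against Scrambled.

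Genes that work with the mitochondrial ribosome were set beside the members. The 5 ribosomal proteins with other names had 1 rise (20%) in each comparison, that of GADD45GIP1. It changed by 0.22 (adjusted p = 0.0108) against Scrambled and 0.26 (adjusted p = 0.00384) against Control on the log2 scale. Of 28 assembly factors, 1 rose and 3 fell against Scrambled (3.57% and 10.7%), and 4 rose and 2 fell against Control (14.3% and 7.14%). Of all genes 8.02% rose and 8.88% fell against Scrambled, and 6.41% and 8.26% against Control. For protein-coding genes these shares were 11.2% and 10.7%, and 8.88% and 10.4%. The GTPase NOA1 fell by 0.38 (adjusted p = 0.0118) and 0.43 (adjusted p = 0.00499), and NGRN fell by 0.26 (adjusted p = 0.0117) and 0.21 (adjusted p = 0.0426). YBEY fell by 0.33 against Scrambled (adjusted p = 0.0125), and RPUSD4, a pseudouridine synthase, rose by 0.43 against Control (adjusted p = 0.0127). Among 18 translation factors, MRRF, the ribosome recycling factor, fell by 0.51 (adjusted p = 6.51e-05) and 0.49 (adjusted p = 9.45e-05), and GFM1, an elongation factor, rose by 0.3 (adjusted p = 0.00466) and 0.27 (adjusted p = 0.012). No other translation factor passed in either comparison, so 5.56% of these factors rose and 5.56% fell in each.

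Of 20 mitochondrial transfer RNA synthetases, 1 rose (5%) and 0 fell against Scrambled, and 0 rose and 1 fell (5%) against Control. The rise was that of LARS2 (0.23, adjusted p = 0.0176). Of 15 genes of mitochondrial DNA transcription and maintenance, 2 rose (13.3%) and 1 fell (6.67%) against Scrambled, and 0 rose and 1 fell (6.67%) against Control. Of all genes 8.02% rose and 8.88% fell against Scrambled, and 6.41% and 8.26% against Control. For protein-coding genes these shares were 11.2% and 10.7%, and 8.88% and 10.4%. The nuclease MGME1 fell by 0.56 (adjusted p = 8.36e-06) and 0.6 (adjusted p = 3.23e-06). TFAM, which packages mitochondrial DNA and activates its transcription, rose by 0.42 against Scrambled (adjusted p = 0.0315), while its change of 0.22 against Control did not pass (adjusted p = 0.281). The ribosomal RNAs MT-RNR1 and MT-RNR2 passed in neither comparison, with standard errors above 1 on the log2 scale in libraries from which ribosomal RNA had been removed.

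The other large complexes gave a scale for the members. Of 38 nuclear-encoded complex I subunits, 4 rose (10.5%) and 0 fell against Scrambled and 2 rose (5.26%) and 0 fell against Control. Their medians were 0.103 and 0.092. Of all genes 8.02% rose and 8.88% fell against Scrambled, and 6.41% and 8.26% against Control. For protein-coding genes these shares were 11.2% and 10.7%, and 8.88% and 10.4%. NDUFB9 (0.38, adjusted p = 0.00841) had the largest rise of the complex I subunits against Scrambled. Of 77 cytosolic ribosomal proteins, 0 rose and 2 fell (2.6%) against Scrambled and 2 rose and 2 fell (2.6% each) against Control. Their medians were 0.044 and 0.083. The falls were RPL18, at -0.43 (adjusted p = 0.000149), and RPS2, at -0.24 (adjusted p = 0.00897), against Scrambled. Of the 13 proteins encoded by mitochondrial DNA, 0 passed against Scrambled (2 at an unadjusted p under 0.05), and MT-ND3 rose against Control (0.21, adjusted p = 0.0315). In bulk RNA, fewer cells of a kind and less RNA per cell cannot be told apart.

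**Figure D5:**
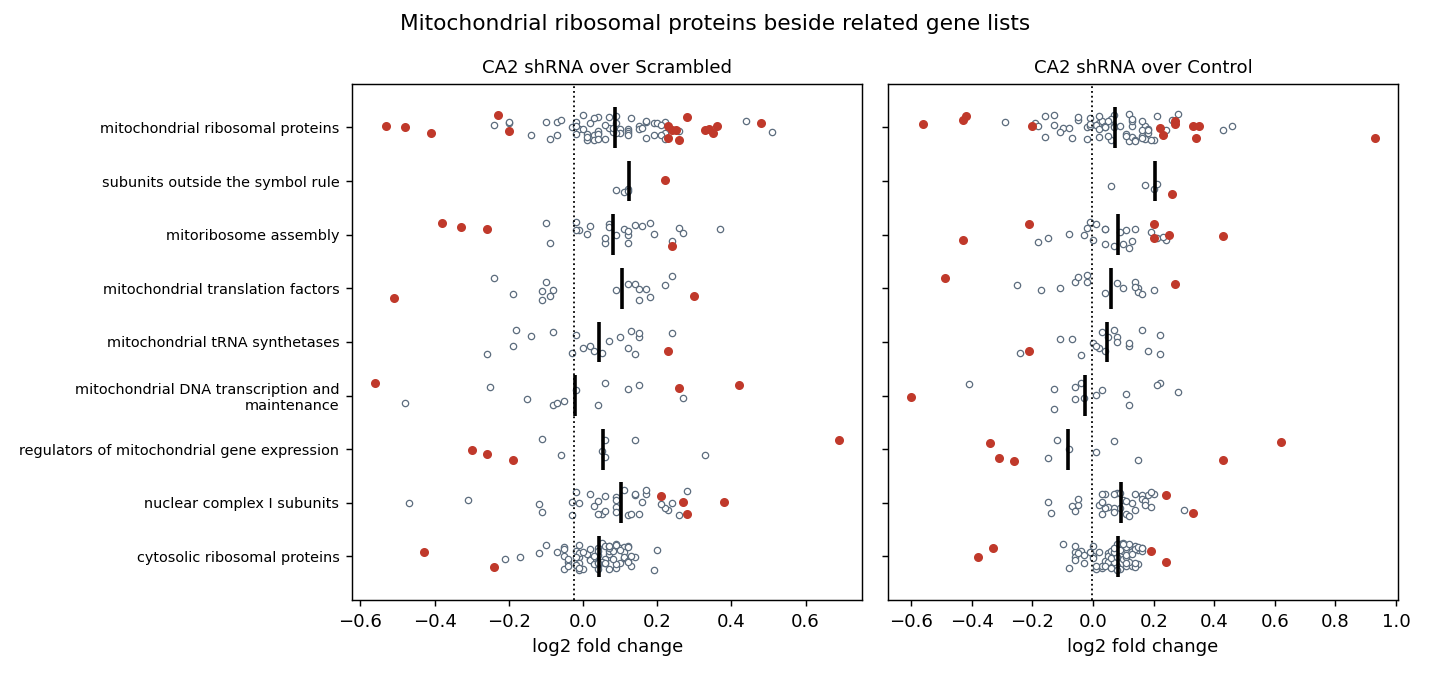
Log2 fold change of each gene of the mitochondrial ribosomal proteins and of 8 related lists, in CA2 shRNA over Scrambled (left) and over Control (right). Red points passed the threshold, black bars are list medians and the dotted line is the median of all genes tested. The median of the mitochondrial ribosomal proteins (0.085 over Scrambled) lies between those of the cytosolic ribosomal proteins (0.044) and of complex I (0.103).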

How the data were processed

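The authors deposited, per the file headers, 1 table per library with the whole-number read count of each Ensembl gene, its CPM and its RPKM; CPM and RPKM equalled values recomputed from the counts and exon lengths. Per the submitters' processing notes, STAR 2.5.1a and featureCounts 1.4.6-p5 were used on GRCh38. The strand setting, the annotation release and how multiply mapped or shared reads were counted were not given in the sources used here. Per the labels' protocols, RNA came from RNeasy columns with QIAGEN FastSelect, which removes ribosomal RNA. Symbols came from a reference table (60401 IDs) and GENCODE 29 (246 IDs).

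Deposited counts were tested with edgeR 4.0.16 (quasi-likelihood, robust, TMM factors of 0.977 to 1.01, filterByExpr, R 4.3.3) on all 9 libraries with a term per group, Benjamini-Hochberg adjusted over 19812 genes at a threshold of 0.05. The biological coefficient of variation was 7.94%. Printed CPM are TMM-scaled; RPKM are as deposited by the authors. On simulated counts the fit was checked for recovery of known changes. With 3 libraries a group, the smallest p of an exact permutation test is 0.1; none was run. No library pair agreed within sampling noise (chi-square per gene at least 3.76). Same-numbered libraries did not deviate together, so replicate numbers were not used as pairs.

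The members, gene lists and naming rule were chosen with earlier results of these data known. All members past the threshold were named, with the 5 highest and 5 lowest by RPKM, members with roles of their own, and up to 4 genes of each related list past the threshold; some of these list genes are not reported here. The 21 alternatives were other scalings, filters and tests (DESeq2 1.42.0, limma-voom 3.58.1), a replicate block, thinning, and libraries left out.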

Additional observations from a re-analysis of the deposited data

How the results depend on the processing

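None of the 18 members past the threshold in a CA2 shRNA comparison changed direction in either comparison under the 21 alternatives. For MRPS24 against Control, 20 of them gave a result. The other members named were not followed through the alternatives. With a filter of 1 CPM in 3 libraries, 19 members rose against Scrambled and 13 against Control. Those are 24.7% and 16.9% of the members, against 12.1% and 10.3% of all genes. Limma-voom and the fit without robust estimation each gave 5 rises against Control. Those are 6.49% of the members, near the 6.0% and 6.09% of all genes that rose in these fits. Without Control 3 and Scrambled 2 there were 18 rises and 3 falls against Scrambled, with a median of 0.143, and 13 rises against Control. Those rises are 23.4% and 16.9% of the members, against 12.1% and 8.77% of all genes, and the falls 3.9% against 9.43%. Leaving out 1 library at a time gave 2 to 19 rises and 3 to 5 falls against Scrambled, with medians of 0.035 to 0.153. Against Control it gave 2 to 15 rises and 3 to 6 falls, with medians of 0.029 to 0.149. The shares that rose are given above for each of these fits. Against Scrambled 3.9% to 6.49% of the members fell, and 5.44% to 9.06% of all genes. Against Control 3.9% to 7.79% of the members fell, and 5.12% to 9.79% of all genes. The cause of these shifts between fits was not tested. With a replicate block, 13 members rose and 5 fell against Scrambled, 8 rose and 4 fell against Control, and 0 and 0 passed between Scrambled and Control. Against Scrambled those are 16.9% and 6.49% of the members, against 8.27% and 9.0% of all genes. Against Control they are 10.4% and 5.19%, against 6.56% and 8.31% of all genes. Against Control the block ended the call of MRPL39 (adjusted p = 0.0511) and gave one to MRPL50 (adjusted p = 0.0464). Correlations of same-numbered libraries, from -0.185 to 0.105, do not show that the numbers pair them. The depth of 16994368 to 34261244 counts limits members at low levels, such as MRPS24 and MRPS18C, most.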
